A study of Mus musculus with 15 samples.

Results

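The collagens described here are those of basement membranes and of the fibrils that anchor them: *Col4a1* to *Col4a6*, *Col7a1*, *Col8a1*, *Col15a1* and *Col18a1*. They are 10 of the 23462 genes that could be named on the microarray, and were chosen by gene name. A probe was counted as theirs when its design identifier was a RefSeq transcript of the gene, which gave 12 probes. Of these genes 6, with 7 probes, were well above background on all 15 arrays, and 4 were not well above background on any array.

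The cells were Mouse Embryonic Fibroblasts (MEFs) of the established line Balb/c/3T3, clone A31, so that all groups derive from a single clone. The study asked which genes mark a proinflammatory or a profibrotic polarization of fibroblasts. MEFs were left untreated (controls) or received 1 of 4 recombinant cytokine treatments, in medium with fetal calf serum in every group. The doses were 10 ng/ml for TNFα, 5 ng/ml for TGFß1 and 1 ng/ml for IL-1β. IL-6 was given at 20 ng/ml together with 25 ng/ml of its soluble receptor, sIL-6Rα. Each of the 5 groups had 3 arrays, which the study describes for its control, TNFα and TGFß1 groups as biological replicas of independent experiments. For the arrays of those groups a stimulation of 24 h is stated. The labels give 24 or 72 h for the cultures, and the exposure time of the IL-1β and IL-6 groups is not stated separately. Below, an array is called by its treatment and the number that opens its label.

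Basement membranes are thin sheets of matrix under epithelia and endothelia and around muscle, fat and nerve cells. Their scaffold is a network of collagen IV, whose chains assemble by threes inside the cell, and which is laid over a network of laminins and held to it by nidogens and perlecan. Collagen VII forms the anchoring fibrils that fasten the basement membrane of the skin to the dermis beneath, and is made by both keratinocytes and fibroblasts. Collagens XV and XVIII carry sugar side chains and lie at the border between basement membrane and connective tissue. Collagen VIII is a short, network-forming collagen of vessel walls and of the corneal endothelium.

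The arrays were 1-color 60-mer microarrays of the mouse genome, hybridized with Cyanine 3-labelled material from the total RNA of each culture. A level is the log2 processed signal of a probe minus the log2 of the 75th percentile of its array, so that 0 stands for a probe as bright as the 75th percentile, and 1 unit is a fold of 2. This 75th percentile lay between 508 and 683, 48.3% to 54.9% of the probes were well above background on an array, and no spot was saturated. Levels of different probes depend on the probes themselves and are not set against each other. Changes were tested in a fit of all 15 arrays with limma's moderated two-sided test. A probe was called with a q-value (Benjamini-Hochberg, over the 29334 probes tested) below 0.05 and a fold-change of at least 1.5. The arrays lay on 2 slides, with 8 arrays on slide 1 and 7 on slide 2, and each group was on both. The label numbers make up 3 runs, 1 to 5, 6 to 10 and 11 to 15, and each group has 1 array in every run. Within each slide, TGFß1 and controls have 1 array against 2, or 2 against 1, and share no run. Slide and run cannot be told apart in their within-slide differences. What a run stands for is not stated, so fits with the slide, or with slide and run, as blocks are alternatives.

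All 8 fibroblast markers (*Col1a1*, *Col1a2*, *Col3a1*, *Pdgfra*, *Pdgfrb*, *Thy1*, *Vim* and *Fn1*) were well above background on every array. Their summed signal, in units of the 75th percentile, was 739 to 891 in controls, 522 to 598 with TNFα and 843 to 1060 with TGFß1. With TNFα 4 of the 8 were called lower (median log2 fold-change -0.55), or 3 with the slide as a block. The TGFß1 arrays had calls for 3 of the 8, 2 of them upwards and 1 downwards (median 0.21). Of all probes tested, 10.2% were called with TNFα (11.9% with the slide as a block) and 18% with TGFß1. Of 8 endothelial markers, which matter here because endothelial cells make much collagen IV and XVIII, *Pecam1* alone was well above background on all arrays and 6, among them *Cdh5*, *Kdr* and *Tie1*, were on none. The summed signal of the 8 endothelial markers was 0.0933 to 0.122 in controls, 0.0996 to 0.186 with TNFα and 0.1 to 0.108 with TGFß1. Of 6 epithelial markers none was well above background on all arrays, and their summed signal was 0.0803 to 0.16 in controls, 0.0576 to 0.0749 with TNFα and 0.163 to 0.422 with TGFß1, where *Krt8* was called higher. *Krt8* was well above background on no control array. It was tested because all TGFß1 arrays were well above background, which held in no other group, so its call rests on a choice made through that group. Of 4 leukocyte markers *Ptprc* and *Adgre1* were well above background on no array, while *Cd68* and *Itgam* were on all. The summed signal of the 4 was 6.23 to 13.7 in controls, 7.11 to 14.1 with TNFα and 7.04 to 12.7 with TGFß1, and 0 of the 2 tested were called with either. The part of these marker signals in the results below was not tested. In a bulk sample, fewer cells of a type and less RNA per cell cannot be told apart.

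With TGFß1, 5 of the 6 detected collagen genes were called against controls, where 18% of all probes tested were called. *Col7a1* and *Col18a1* were higher and *Col4a1*, *Col4a2* and *Col4a5* were lower. With TNFα, 2 of 6 were called, against 10.2% of all probes, and both were collagen IV chains that were lower, *Col4a1* and *Col4a2*. With IL-1β and with IL-6 and sIL-6Rα 0 of 6 were called, against 0.252% and 0.0648% of all probes. The median log2 fold-change over the 6 genes was -0.55 with TNFα, -0.64 with TGFß1, -0.25 with IL-1β and -0.21 with IL-6. Over all probes tested the medians were 0.04, 0.05, 0.00 and -0.00.

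**Figure D1:**
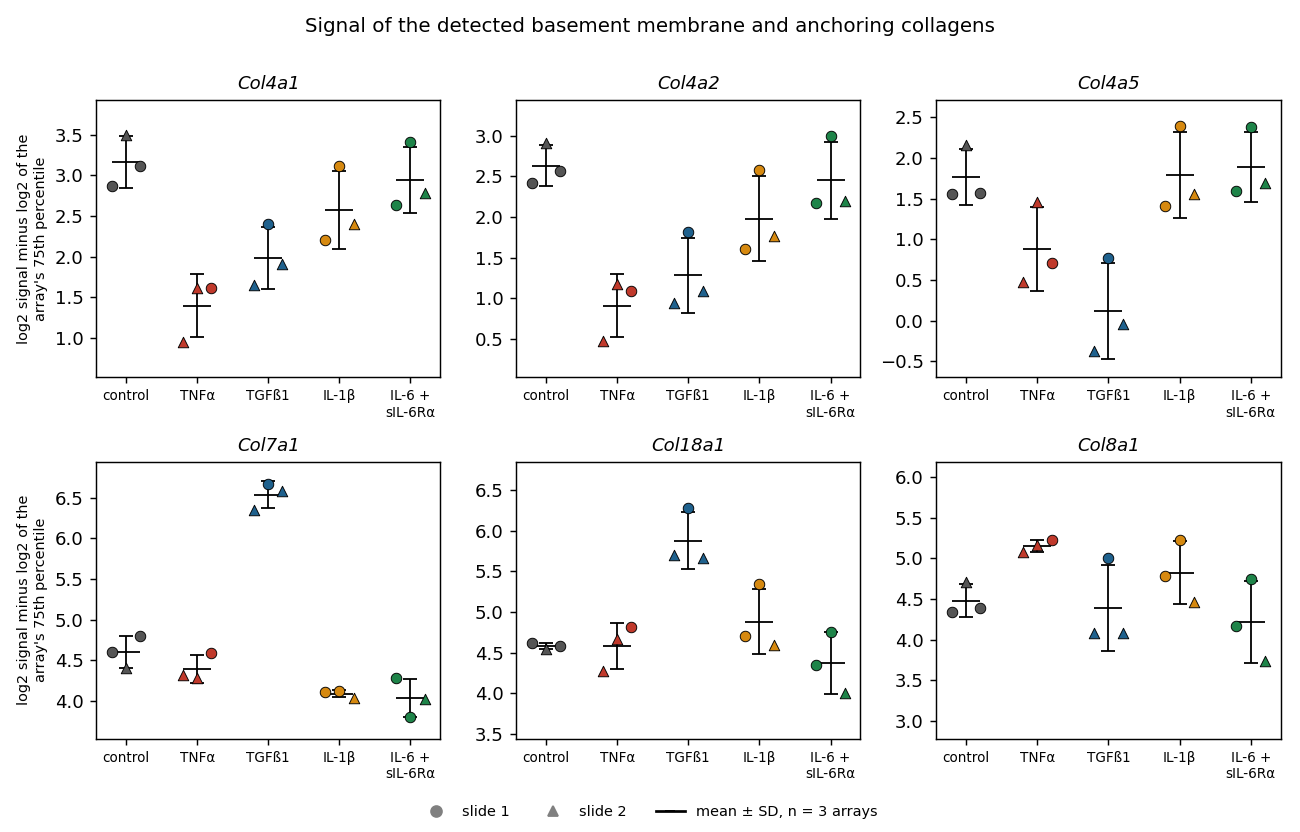
Level of the 6 detected collagen genes on each array (points; circles are slide 1 and triangles slide 2) with the mean and SD of the 3 arrays of a group. The vertical axes are the log2 signal minus the log2 of the array's 75th percentile and all cover the same span; the lowest *Col4a1* and *Col4a2* levels are on TNFα 4, at 0.95 and 0.47, and the TGFß1 arrays of *Col7a1* stand at 6.35 to 6.67, above all other arrays.

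*Col4a1* and *Col4a2* encode the chains of the most widespread collagen IV network, in which the product of *Col4a1* is the more abundant chain. On the control arrays the *Col4a1* level was 2.87 on control 1, 3.50 on control 6 and 3.12 on control 11. On the TNFα arrays it was 0.95 on TNFα 4, 1.62 on TNFα 9 and 1.62 on TNFα 14. On the TGFß1 arrays it was 1.65 on TGFß1 2, 2.40 on TGFß1 7 and 1.91 on TGFß1 12. All TNFα and all TGFß1 arrays were below all control arrays, and all TNFα arrays were below all TGFß1 arrays. With TNFα the log2 fold-change of *Col4a1* was -1.77 ± 0.30 (SE; q = 0.00233 in limma's test), a level 3.41-fold lower, and with TGFß1 it was -1.18 ± 0.30 (q = 0.0138), 2.27-fold lower. The call with TGFß1 depended on single arrays: the log2 fold-change was -1.01 (q = 0.0556) without control 6 and -1.01 (q = 0.0621) without TGFß1 2, and was not called in either fit. Within slide 1 the TGFß1 difference was -0.59 and within slide 2 it was -1.72, and the TNFα differences were -1.38 and -2.22. The arrays differed from each other along the runs of label numbers. TGFß1 arrays stood at -1.22 to -1.10 relative to the control array of the same run. With slide and run as blocks the TGFß1 change was -1.12 (q = 1.1e-05) and the TNFα change -1.71 (q = 2.1e-06).

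*Col4a2* followed the same order. Its level was 2.42, 2.91 and 2.56 on controls 1, 6 and 11, 0.47, 1.17 and 1.09 on TNFα 4, 9 and 14, and 0.94, 1.81 and 1.09 on TGFß1 2, 7 and 12. Neither treated group overlapped the controls, while the TNFα and TGFß1 arrays overlapped each other. The log2 fold-change was -1.72 ± 0.33 with TNFα (q = 0.00441, 3.29-fold lower) and -1.35 ± 0.33 with TGFß1 (q = 0.01, 2.55-fold lower). Within slides 1 and 2 the differences were -1.40 and -2.09 with TNFα, and -0.68 and -1.90 with TGFß1. The 15 fits that each left out 1 array kept both calls, with log2 fold-changes of -1.85 to -1.50 and -1.62 to -1.18.

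*Col4a1* and *Col4a2* lie head to head on chromosome 8 and are transcribed away from each other from a shared stretch of promoter, a layout known for all pairs of collagen IV genes. In the RefSeq promoter table of the assembly GRCm38.p6 the start of *Col4a1* (minus strand) is at 11312826 and that of *Col4a2* (plus strand) at 11312805, so that 22 bases lie from start to start and belong to both transcripts. These bases are shown because both genes fell together. They stand at chr8:11312805-11312826, on the plus strand, and the capitals mark a match to the GC box GGGCGG, the element that Sp1 factors bind.

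Col4a1 and Col4a2: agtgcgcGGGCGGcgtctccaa

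The array-to-array variation of both genes was nearly the same. Taken against the mean of the controls, the *Col4a2* change minus the *Col4a1* change was -0.05 to 0.09 on controls, 0.01 to 0.09 with TNFα, -0.29 to -0.06 with TGFß1, -0.11 to -0.00 on IL-1β arrays and -0.06 to 0.13 on IL-6 arrays. On the TGFß1 arrays *Col4a2* was thus further below its control mean than *Col4a1* on 3 of 3 arrays, by a mean of 0.17 ± 0.11 (SD), a description with no test. Pearson's r of both levels over the 15 arrays was 0.99. The points share arrays, slides, runs and treatments, and r is given as a description.

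**Figure D2:**
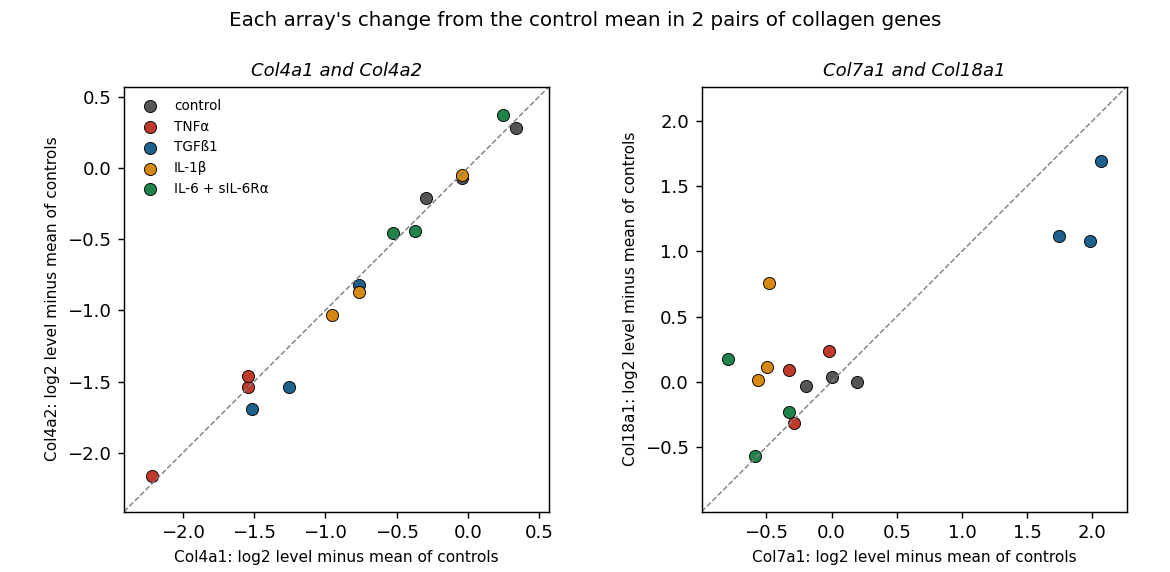
Each point is 1 of the 15 arrays; both axes give its log2 level minus the mean of the 3 control arrays, for *Col4a1* against *Col4a2* (left) and *Col7a1* against *Col18a1* (right), and the dashed line marks equal change. The *Col4a2* points lie at most 0.29 from the line, while *Col18a1* lies up to 0.91 under it on TGFß1 arrays and up to 1.24 above it on an IL-1β array.

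IL-1β arrays held an intermediate place for both genes in the group means. Against TGFß1 they were at 0.59 ± 0.30 (q = 0.183 in limma's test) for *Col4a1* and 0.70 ± 0.33 (q = 0.143) for *Col4a2*. Neither difference was called without blocks, and the IL-1β and TGFß1 arrays overlapped in each gene. That of *Col4a2* was called with slide and run as blocks. *Col4a1* was at 2.21, 3.12 and 2.40 on IL-1β 5, 10 and 15, a log2 fold-change of -0.59 ± 0.30 against controls (95% interval -1.25 to 0.07, q = 1). *Col4a2* was at 1.60, 2.58 and 1.76, a change of -0.65 ± 0.33 (-1.36 to 0.06, q = 1). In each gene 2 of the 3 IL-1β arrays were below all controls, and IL-1β 10 was within their range. Both changes were called with slide and run as blocks (q = 0.00951 and 0.00513), and with no other setting tried. Against TNFα, where 4.83% of all probes were called, *Col4a1* was higher with IL-1β by 1.18 ± 0.30 (q = 0.0399), the single detected collagen of this group called there.

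With IL-6 and sIL-6Rα, *Col4a1* was at 2.64, 3.41 and 2.79 and *Col4a2* at 2.17, 3.00 and 2.19 on IL-6 3, 8 and 13. Both ranges overlapped that of the controls, and the changes were -0.22 ± 0.30 (-0.88 to 0.44) and -0.18 ± 0.33 (-0.88 to 0.53). Both genes were higher with IL-6 than with TNFα, by 1.55 ± 0.30 (q = 0.00566) and 1.54 ± 0.33 (q = 0.00895), and than with TGFß1, by 0.96 ± 0.30 (q = 0.0389) and 1.18 ± 0.33 (q = 0.0217). In these comparisons 8.68% and 16.4% of all probes were called.

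*Col4a5* encodes a chain that forms a network with the products of *Col4a3* and *Col4a4* in the kidney glomerulus, and another with that of *Col4a6* in smooth muscle and skin. Its brighter probe was at 1.56, 2.16 and 1.57 on controls 1, 6 and 11, 0.47, 1.46 and 0.71 on TNFα 4, 9 and 14, and -0.37, 0.77 and -0.04 on TGFß1 2, 7 and 12. The TGFß1 arrays were all below the controls, with a log2 fold-change of -1.64 ± 0.37 (q = 0.00652, 3.13-fold lower). The fall was -0.80 within slide 1 and -2.36 within slide 2. The TNFα arrays were below the controls as well, but the change of -0.88 ± 0.37 (-1.68 to -0.09) had q = 0.143 and was called with slide and run as blocks alone (q = 6.66e-05).

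Here the order of the group means differed from that of *Col4a1* and *Col4a2*, with TGFß1 lowest. TNFα against TGFß1 was at 0.76 ± 0.37 (q = 0.205 in limma's test), and the arrays overlapped. This difference was -0.06 within slide 1 and 1.17 within slide 2. In *Col4a1* and *Col4a2* it was -0.59 ± 0.30 (q = 0.239) and -0.37 ± 0.33 (q = 0.548). None was called without blocks, while those of *Col4a5* and *Col4a1* were called with slide and run as blocks. The *Col4a5* change minus the *Col4a1* change was 0.49 to 1.25 with TNFα and -0.61 to -0.23 with TGFß1, against -0.15 to 0.09 on controls. IL-1β arrays (1.41, 2.39 and 1.56) and IL-6 arrays (1.59, 2.38 and 1.69) overlapped the controls, with changes of 0.03 ± 0.37 and 0.13 ± 0.37. Both groups were above TGFß1, by 1.67 ± 0.37 (q = 0.00636, with 17% of all probes called) and 1.77 ± 0.37 (q = 0.00466).

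A dimmer probe for another *Col4a5* transcript gave the same directions with a larger spread. It was at -2.84, -1.29 and -3.00 on controls, -2.60, -1.88 and -3.77 on TNFα arrays and -3.53, -3.52 and -3.34 on TGFß1 arrays. TGFß1 arrays were again below all controls, but the change of -1.09 ± 0.48 had q = 0.118 and was called with the slide (-1.35, q = 0.0135) or slide and run as blocks (q = 5.44e-05). TNFα and control arrays overlapped, with a change of -0.37 ± 0.48 (q = 0.668).

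*Col4a3*, *Col4a4* and *Col4a6* have restricted sites in the body, such as kidney, lung and cochlea for the first pair. Their processed signals were 3.11 to 11.2, 2.95 to 4.41 and 2.58 to 5.12 over the 15 arrays, not well above background on any. The highest *Col4a3* signal was on an IL-6 array, and was not well above background either. No fold-change is given for these genes. *Col15a1*, whose collagen is found next to basement membranes of muscle and vessels, had a pair of probes with signals of 2.81 to 3.92 and 2.77 to 3.93, likewise not well above background.

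*Col7a1*, the gene of the anchoring fibril collagen, was called with TGFß1 under every setting tried. It was at 4.61, 4.41 and 4.80 on controls 1, 6 and 11, and at 6.35, 6.67 and 6.59 on TGFß1 2, 7 and 12. The TGFß1 arrays were far above all others. The log2 fold-change was 1.93 ± 0.15 (95% interval 1.61 to 2.25, q = 4.97e-06), 3.81-fold higher, and was 1.96 within slide 1 and 2.06 within slide 2. It was 1.83 to 2.03 in the 15 fits without 1 array, and called in each. *Col7a1* belongs to the gene set that the study chose on these samples, so that its rise is no independent evidence for that choice.

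The other cytokines gave *Col7a1* levels at or under those of controls. TNFα arrays were at 4.32, 4.28 and 4.59, overlapping the controls, with a change of -0.21 ± 0.15 (-0.54 to 0.11, q = 0.411). IL-1β arrays were at 4.11, 4.13 and 4.04 and IL-6 arrays at 4.28, 3.81 and 4.02, all below the lowest control. The changes were -0.52 ± 0.15 (-0.84 to -0.19, q = 0.473) and -0.57 ± 0.15 (-0.89 to -0.25, q = 0.485), and neither was called in any setting tried. With slide and run as blocks both passed the q-value (0.0387 and 0.0339) but not the fold-change of 1.5.

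The direct comparison of TNFα with TGFß1, in which 11.8% of all probes were called, called 2 of the 6 genes, both lower with TNFα. *Col7a1* was lower by 2.14 on average (log2 fold-change -2.14 ± 0.15, q = 1.33e-06, 4.41-fold). It was also lower with IL-1β than with TGFß1 (-2.45 ± 0.15, q = 1.01e-06) and with IL-6 than with TGFß1 (-2.50 ± 0.15, q = 7.44e-07).

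*Col18a1* encodes the collagen whose terminal fragment, endostatin, is released by proteases and inhibits vessel growth. It was at 4.62, 4.55 and 4.58 on controls 1, 6 and 11, 5.70, 6.28 and 5.66 on TGFß1 2, 7 and 12, and 4.27, 4.67 and 4.82 on TNFα 4, 9 and 14. The TGFß1 arrays were above all control and TNFα arrays, and the TNFα arrays lay on both sides of the controls. With TGFß1 the log2 fold-change was 1.30 ± 0.25 (q = 0.0025, 2.46-fold higher), 1.68 within slide 1 and 1.13 within slide 2. With TNFα it was 0.01 ± 0.25 (-0.53 to 0.54, q = 0.99). TNFα was lower than TGFß1 by a log2 fold-change of -1.29 ± 0.25 (q = 0.00309).

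IL-1β arrays were at 4.70, 5.34 and 4.60 and IL-6 arrays at 4.35, 4.76 and 4.01 for *Col18a1*. Both overlapped the controls, with changes of 0.29 ± 0.25 and -0.21 ± 0.25 and q = 1. Both groups were below TGFß1, IL-1β 2-fold (q = 0.0115) and IL-6 2.84-fold (q = 0.001). On the 3 TGFß1 arrays *Col18a1* stood less far above its control mean than *Col7a1* did, by 0.36 to 0.91 on the log2 scale, a difference of changes and not of levels that was not tested. Over the 15 arrays r of the pair was 0.834, and the TGFß1 arrays lie apart from the rest in both genes.

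The promoter stretches of *Col7a1* and *Col18a1* are shown because these genes rose together with TGFß1. Each holds the 250 bases before a start in the RefSeq table of GRCm38.p6, read 5′ to 3′ on the strand of the gene, and *Col18a1* has 2 starts, of which the probe does not tell the use. Capitals mark matches, on either strand, to any of the motifs searched: the Smad element CAGAC, the GC box GGGCGG, the CCAAT box CCAAT, the AP-1 element TGANTCA and the TATA box TATAAA. The *Col7a1* stretch is at chr9:108953336-108953585 on the plus strand, and the *Col18a1* stretches are at chr10:77166531-77166780 and chr10:77113706-77113955 on the minus strand.

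Col7a1: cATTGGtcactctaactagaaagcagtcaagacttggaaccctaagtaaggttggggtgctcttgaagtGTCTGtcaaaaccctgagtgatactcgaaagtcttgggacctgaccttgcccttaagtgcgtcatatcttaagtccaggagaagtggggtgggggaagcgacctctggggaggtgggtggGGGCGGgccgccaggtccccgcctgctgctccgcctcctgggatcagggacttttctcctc
Col18a1, first start: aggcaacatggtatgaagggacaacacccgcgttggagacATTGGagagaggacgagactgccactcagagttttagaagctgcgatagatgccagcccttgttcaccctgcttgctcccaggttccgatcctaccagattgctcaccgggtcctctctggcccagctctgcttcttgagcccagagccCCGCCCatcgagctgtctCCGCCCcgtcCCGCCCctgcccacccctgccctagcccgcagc
Col18a1, second start: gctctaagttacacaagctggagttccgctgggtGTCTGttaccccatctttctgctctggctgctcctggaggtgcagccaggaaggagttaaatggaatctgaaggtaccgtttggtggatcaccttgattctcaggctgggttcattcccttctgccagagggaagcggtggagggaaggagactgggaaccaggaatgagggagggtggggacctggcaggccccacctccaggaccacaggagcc

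*Col7a1* holds 1 Smad element, 1 GC box and 1 CCAAT box, the first start of *Col18a1* 3 GC boxes and 1 CCAAT box, and the second start 1 Smad element. Of the 10 members' genes 9 are in the table, with 10 windows of 250 bases before and 50 after a start. A Smad element is in 6 of these 10 windows and in 49.6% of all 32851, a GC box in 7 of 10 and 35.7%, and a CCAAT box in 5 of 10 and 37.4%. An AP-1 element is in 0 of 10 and 7.81%, and a TATA box in 0 of 10 and 13.6%. The windows of *Col4a1* and *Col4a2* overlap by 78 bases, so that the GC box shown above counts in both of them. The motifs do not share their letters, and a match is a description of the letters alone.

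*Col8a1*, the gene of a collagen VIII chain, was the detected gene with no call in the fit without blocks. It was at 4.34, 4.71 and 4.39 on controls 1, 6 and 11 and at 5.08, 5.16 and 5.23 on TNFα 4, 9 and 14. The TNFα arrays were all above the controls. The log2 fold-change was 0.68 ± 0.29 (0.05 to 1.31, q = 0.157). With the slide as a block, where 11.9% of all probes were called, it was 0.81 ± 0.25 and called (q = 0.0431), which made 3 of 6 genes with TNFα. Within slides 1 and 2 it was 0.87 and 0.41.

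The TGFß1 arrays of *Col8a1* were at 4.08 on TGFß1 2, 5.00 on TGFß1 7 and 4.08 on TGFß1 12. TGFß1 7 is the 1 TGFß1 array on slide 1 and in its run. Within slide 1 the TGFß1 difference was 0.64, and within slide 2 it was -0.63. Relative to the control array of the same run, TGFß1 2, 7 and 12 stood at -0.26, 0.29 and -0.31. The change over all arrays was -0.09 ± 0.29 (-0.72 to 0.54, q = 0.846). TNFα was above TGFß1 on all arrays by 0.77 ± 0.29 (q = 0.102), called with the slide as a block, where 13.5% of all probes were called, and without TGFß1 7 (q = 0.0245). IL-1β arrays (4.78, 5.23 and 4.47) and IL-6 arrays (4.17, 4.75 and 3.74) overlapped the controls, with changes of 0.34 ± 0.29 and -0.26 ± 0.29. With the slide, TGFß1 kept its count of 5 of 6 genes (20.1% of all probes), and IL-1β and IL-6 theirs of 0 of 6 (0.358% and 0.126%).

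**Figure D3:**
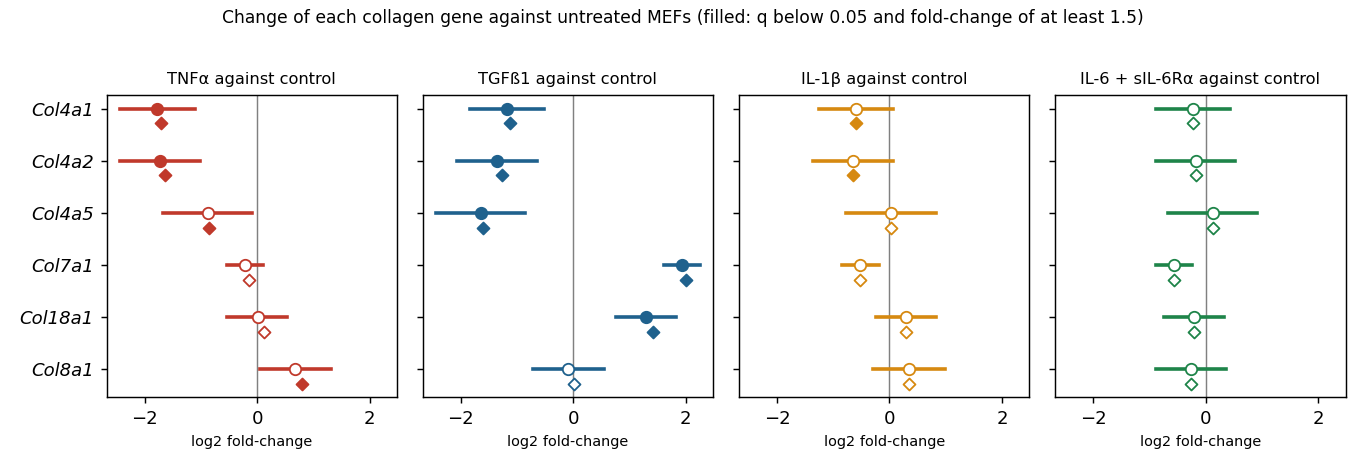
Log2 fold-change against controls of the 6 detected genes with TNFα, TGFß1, IL-1β and IL-6 with sIL-6Rα, from the fit of 15 arrays (circles, with 95% intervals) and from the fit with slide and run as blocks (diamonds). Filled symbols passed a q-value below 0.05 and a fold-change of at least 1.5: 2, 5, 0 and 0 circles, and 4, 5, 2 and 0 diamonds. Of all probes tested 15.4%, 22.4%, 1.09% and 0.777% were called in the fit of the diamonds.

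The variation among arrays of a group had a shared pattern in the collagen IV genes. *Col4a2* and the brighter probe of *Col4a5* were highest in each of the 5 groups on the array numbered 6 to 10, and *Col4a1* too, where TNFα 9 and TNFα 14 were level at 1.62. The dimmer *Col4a5* probe was highest outside that run with TGFß1 (-3.34 on TGFß1 12) and IL-6 (-1.86 on IL-6 13). *Col8a1* had its highest array in that run in 4 of 5 groups, *Col18a1* in 3 and *Col7a1* in 2. Against the control array of the same run, *Col4a1*, *Col4a2* and the brighter probe of *Col4a5* were lower on 3 of 3 TNFα and 3 of 3 TGFß1 arrays. On the dimmer *Col4a5* probe TNFα 4 (-2.60) was above control 1 (-2.84). *Col7a1* was higher by 1.74 to 2.26 on 3 of 3 TGFß1 arrays. After the group means were removed, slide 2 was lower than slide 1 by 0.15 to 0.39 in all 6 genes, with *Col4a5* taken by its brighter probe. The dimmer *Col4a5* probe went the other way. On controls it was at -1.29 on control 6, on slide 2, and at -2.84 and -3.00 on controls 1 and 11, on slide 1.

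In the order of the group means, 2 of the 24 neighbouring pairs over the 6 genes were called: TGFß1 above controls in *Col7a1* and TGFß1 above IL-1β in *Col18a1*. Over all probes and all 10 pairs of groups 8.77% of the tests were called. With slide and run as blocks 6 of the 24 were called, and 12.6% of all tests in that fit. Both shares cover all pairs of groups, while neighbours are the pairs closest in mean. The share of neighbouring pairs called over all probes is not given, so these counts have no like share beside them. Between TNFα and TGFß1 that fit called 5 of the 6 genes and 16.1% of all probes. *Col4a1* and *Col4a2* shared the order controls, IL-6, IL-1β, TGFß1, TNFα. *Col4a5* ran IL-6, IL-1β, controls, TNFα, TGFß1. *Col7a1* ran TGFß1, controls, TNFα, IL-1β, IL-6. *Col18a1* ran TGFß1, IL-1β, TNFα, controls, IL-6, and *Col8a1* TNFα, IL-1β, controls, TGFß1, IL-6. Of all 60 pairs of groups in the 6 genes, 20 were called, 5 in *Col4a1* and 0 in *Col8a1*, beside the 8.77% of all tests given above. Between IL-1β and IL-6 none of the 6 genes was called, with 0.419% of all probes called between them.

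Genes with the most similar profile were sought over the 15 arrays among 13487 tested genes, as a description. For *Col4a1* they were *Col4a2* (r = 0.99), *Acat1* (0.981), a mitochondrial thiolase, and *Copz2* (0.981), a subunit of the coat of transport vesicles. For *Col4a2* they were *Col4a1* (0.99), *Cyb561* (0.983), an electron-transferring cytochrome, and *Pbxip1* (0.98). For *Col4a5* they were *Arhgef6* (0.987), an exchange factor for small GTPases, *Xpnpep2* (0.976), an aminopeptidase, and *Gstk1* (0.974), a glutathione transferase. For *Col7a1* they were *Ucn2* (0.984), a peptide hormone, *Itgb3* (0.983), an integrin subunit, and *Pdrg1* (0.979). For *Col18a1* they were *Cemip2* (0.947), a hyaluronan-binding membrane protein, *Morrbid* (0.934), a long noncoding RNA, and *Jam2* (0.926), a junction protein. The arrays that give these values share treatments, slides and runs.

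The other genes of the basement membrane were taken from lists and are given beside the collagens. Of all probes tested, 18% were called with TGFß1 (20.1% with the slide as a block), 10.2% with TNFα and 0.252% with IL-1β. The counts of the lists below stand beside these shares. No list was tested as a set, and a count near its share is no result about the list. Of 11 genes for laminin chains, the chains of the laminin network, 7 were tested. With TGFß1, 2 were called higher and 2 lower, with a median log2 fold-change of -0.10. The lower genes were *Lama4* (-1.57 ± 0.26, q = 0.00105) and *Lamb2* (-1.49 ± 0.16, q = 7.02e-05), chains of laminins of vessels and muscle. Among the higher genes was *Lamb3*, which encodes a laminin chain of the skin's basement membrane. It was well above background on no control array and on 3 of 3 TGFß1 arrays, at least 2.64-fold higher (q = 0.000119). This bound sets the TGFß1 mean against the dimmest signal well above background on each control array, or the probe's own signal where higher. *Lamb3* was tested because all TGFß1 and all IL-1β arrays were well above background, which held in no other group. Its calls with these treatments thus rest on a choice made through the groups where it is high.

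With TNFα the laminin count was again 2 higher and 2 lower, with a median of -0.14. *Lamb3* was well above background on 2 of 3 TNFα arrays and at least 1.03-fold higher (q = 0.00949). *Lama5* (-1.70 ± 0.27, q = 0.00145) and *Lamb2* (-0.69 ± 0.16, q = 0.0154) were lower. With IL-1β, *Lamb3* was the 1 gene called, at least 1.94-fold higher (q = 0.0093).

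Nidogens link the laminin and collagen IV networks. Of 8 genes for nidogens, proteoglycans and other matrix proteins, among them *Sparc* and *Npnt*, 7 were tested. Called with TGFß1 were 0 higher and 3 lower (median -0.66). *Nid2* fell by 1.59 ± 0.42 on the log2 scale (q = 0.0152) and *Nid1* by 0.97 ± 0.10 (q = 4.19e-05), and *Hspg2*, the gene of perlecan, was at -0.66 ± 0.18 (q = 0.0171). With the slide as a block *Hspg2* was at -0.56 and not called, which left 2 lower genes. With TNFα, *Nid2* (-1.59 ± 0.42, q = 0.0248) was the 1 gene called. *Nid1* was called higher with IL-1β (0.70 ± 0.10, q = 0.0114) and was higher with TNFα than with TGFß1 (1.41 ± 0.10, q = 1.51e-06).

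Of 20 genes listed for the hydroxylation, folding, export or cross-linking of collagens, 19 were tested. The list is not confined to genes that act on collagen IV. With TGFß1, 2 were higher and 1 lower (median 0.31), and with TNFα 0 were higher and 2 lower (median -0.23). *Pxdn*, the peroxidase that forms the sulfilimine bonds of collagen IV, was higher with TGFß1 (1.28 ± 0.14, q = 5.34e-05). With TNFα, where *Col4a1* and *Col4a2* were lower as with TGFß1, *Pxdn* was at 0.13 ± 0.14 (q = 0.593). *Plod2*, a lysyl hydroxylase, was higher with TGFß1 too (0.93 ± 0.14, q = 0.000451), and *Loxl1*, a lysyl oxidase, was lower with TGFß1 (-0.62 ± 0.16, q = 0.0129). With the slide as a block *Loxl1* was at -0.54 with TGFß1 and not called, and the list had 3 higher genes and 0 lower. *Loxl1* (-0.69 ± 0.16, q = 0.012) and *Plod1* (-1.17 ± 0.18, q = 0.00119) were lower with TNFα. Between both treatments, where 11.8% of all probes were called, 6 of the 19 were called, all lower with TNFα.

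Receptors of basement membranes were called in both directions. Of 10 tested, 2 were higher and 2 lower with TGFß1 (median -0.39). *Itga7*, a laminin receptor subunit of muscle, was at 1.80 ± 0.23 (q = 0.000194) and *Itgb1* at 0.82 ± 0.10 (q = 0.000151), while *Itga3* was at -1.23 ± 0.17 (q = 0.000281) and *Dag1*, dystroglycan, at -0.84 ± 0.18 (q = 0.00466). With TNFα, *Itga3* (-0.97 ± 0.17, q = 0.00241) and *Dag1* (-0.68 ± 0.18, q = 0.0236) were lower. *Itga2*, a collagen receptor subunit, was well above background on no control array and at least 3.27-fold higher with TNFα (q = 0.0149). It was tested because all TNFα arrays were well above background, which held in no other group. Its call and its place in the count thus rest on a choice made through the group where it is high.

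Of 15 genes for partners of the anchoring fibril and for hemidesmosomes, the junctions that hold epithelial cells to the basement membrane, 9 were tested, with 5 higher and 0 lower with TGFß1 (median 0.60) and 2 higher and 0 lower with TNFα (median 0.22). *Tll1*, a protease of the family that processes procollagen VII, was called higher with TGFß1 (q = 0.000612), with a mean level of 0.54 against -5.72 in controls, where 2 of 3 arrays were well above background. *Tll1* was tested because all TGFß1 arrays were well above background, which held in no other group. Its call and its place in the count thus rest on a choice made through the group where it is high. *Lamb3*, given above, is on this list as well. *Col17a1*, the transmembrane collagen of hemidesmosomes, was higher (2.00 ± 0.42, q = 0.00451), as was *Bmp1*, another such protease (0.60 ± 0.17, q = 0.024).

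Of 14 genes for proteases that cleave basement membrane collagens, release endostatin or activate other proteases, 11 were tested. With TNFα, 6 were higher and 0 lower (median 0.69). *Mmp13* was at 5.84 ± 0.22 (q = 1.77e-08) and *Mmp10* at 4.72 ± 0.47 (q = 4.88e-05). With TGFß1, 2 were higher and 1 lower (median 0.19), namely *Plat* (2.75 ± 0.20, q = 2.87e-06), *Mmp14* (0.59 ± 0.17, q = 0.0275) and *Mmp3* (-2.83 ± 0.33, q = 9.79e-05). The study chose *Mmp3* for its gene set on these samples.

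Fibrillar collagens build the fibrils of connective tissue. Of 9 genes tested, 2 were higher and 0 lower with TGFß1 (median 0.26), and 1 higher and 5 lower with TNFα (median -0.79). *Col5a3* was higher with both treatments, with a mean level of 0.84 on controls, 2.34 with TNFα (q = 0.00599) and 4.13 with TGFß1 (q = 1.62e-05), and *Col5a1* was higher with TGFß1 (0.79 ± 0.26, q = 0.0449). *Col3a1* (-2.17 ± 0.44, q = 0.00661) and *Col5a1* (-1.22 ± 0.26, q = 0.00929) were lower with TNFα. *Col5a1* and *Col5a3* too are in the study's gene set.

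**Figure D4:**
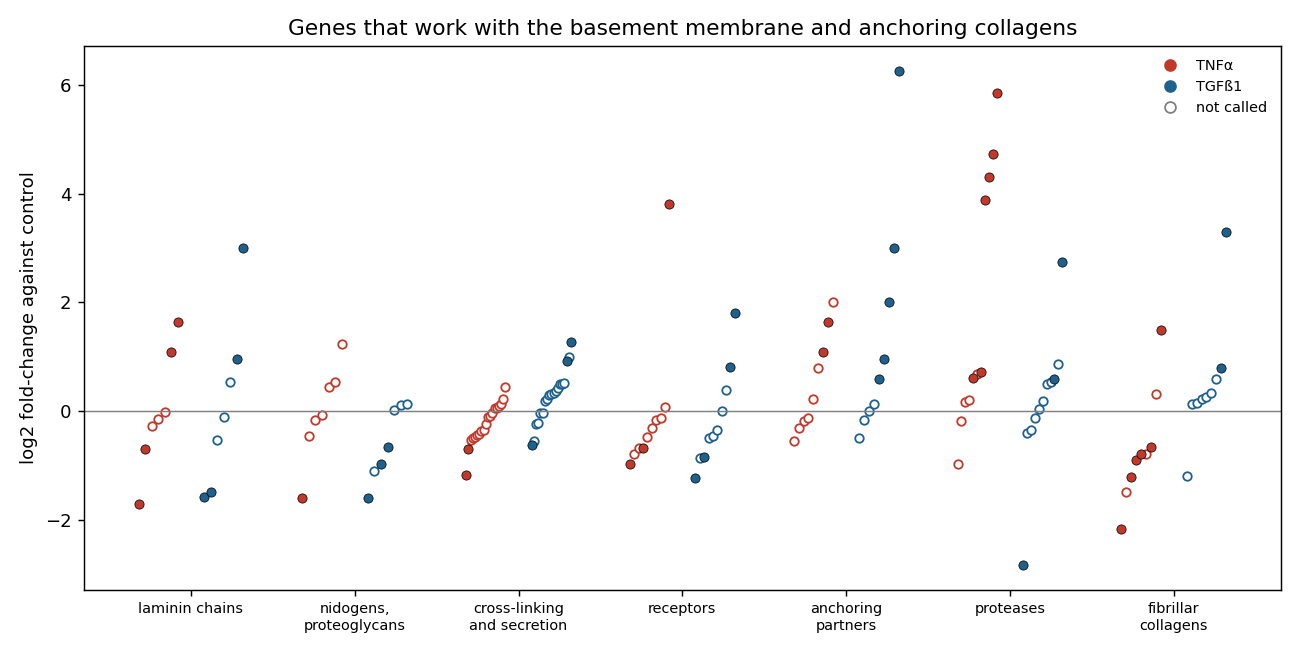
Log2 fold-change against controls of every tested gene of 7 lists, with TNFα (red) and TGFß1 (blue), sorted by value within a list. Filled points were called and open points were not; the anchoring partners hold 5 filled points above 0 with TGFß1, and the proteases 6 with TNFα.

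Known targets of each cytokine were called in the groups that received it. With TNFα, *Tnfaip3* was higher by 3.84 ± 0.12 (q = 8.69e-09), with TGFß1 *Ccn2* by 3.06 ± 0.39 (q = 0.00019), with IL-1β *Cxcl1* by 4.14 ± 0.21 (q = 2.04e-06) and with IL-6 *Socs3* by 2.39 ± 0.20 (q = 0.00116).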

How the data were processed

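RNA of 15 cultures of MEFs was measured on 15 Agilent 1-color arrays, 3 for each of 5 groups named by the labels. The authors extracted the scans with Agilent Feature Extraction 10.7.3.1, and the deposited intensity of a spot is its processed signal, after background subtraction and spatial detrending by the software. It is not normalized between arrays. The values of the series table equal them (largest difference 0).

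Non-control spots (59305 of 62976, for 56605 probes) were used, without those marked as non-uniform or population outliers (77 to 155 per array). Log2 signals were averaged by probe, and the log2 of the 75th percentile that the software wrote for the array was subtracted. The software marks spots well above background. A probe took this mark on an array if 0.5 or more of its spots had it, and the 29334 probes marked on all arrays of any group were tested. RefSeq identifiers were matched to a table of GRCm38.p6 (33767 probes named). No genome coordinates of probes are given because the array follows an older assembly.

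limma 3.58.1 in R 4.3.3, with the package data.table (1.17.8), fitted the 5 groups over all 15 arrays, with moderated tests, 95% intervals from the moderated SE, and q-values by Benjamini-Hochberg over the tested probes of a contrast. Calls needed a q-value below 0.05 and a fold-change of at least 1.5. The scripts were tested on simulated data. The 10 genes were taken with all their probes, the brightest on average standing for the gene. From the lists of partner genes, the 2 called genes with the largest change on each side with TNFα and with TGFß1 are named, and further genes named there (*Hspg2*, *Nid1* with IL-1β, *Col17a1*, *Bmp1*, the target genes) were chosen after their values were seen. A gene of the lists that the rule would name is not reported here. For each gene called against controls, the 3 genes with the highest Pearson's r over the arrays are named. Members and lists were chosen with earlier results of these data known. Precision is limited by the number of arrays, and p-values measure the spread between these arrays. Alternatives were quantile normalization, normexp background correction (offset 50), the filter on dim probes, the slide, the slide and run, the arrays fitted, the mean of a gene's probes, a fold-change of 2, leaving out each array and, chosen after seeing the data, another percentile.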

Additional observations from a re-analysis of the deposited data

How the results depend on the processing

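The counts of called collagen genes were 2 with TNFα, 5 with TGFß1, 0 with IL-1β and 0 with IL-6 against controls, 2 for TNFα against TGFß1, and 20 over all 60 pairs of groups. With slide and run as blocks they were 4 with TNFα, 2 with IL-1β, 5 for TNFα against TGFß1 and 33 over all pairs, where 15.4%, 1.09%, 16.1% and 12.6% of all tests were called. The 5 with TGFß1 and 0 with IL-6 were kept there. Under the other alternatives every count was within 1.5 times its value. The runs come from label numbers and no label states a shared experiment, so which fit describes the experiment is not known. Leaving out each array gave 2 to 2 with TNFα, 4 to 5 with TGFß1, 0 to 0 with IL-1β, 0 to 0 with IL-6, 2 to 3 for TNFα against TGFß1 and 17 to 22 over all pairs. Changes near 0 turned their direction: *Col18a1* with TNFα was -0.06 after quantile normalization and -0.11 to 0.16 without 1 array, *Col4a5* with IL-1β was -0.00 after normexp and -0.28 to 0.22 without 1 array, *Col4a5* with IL-6 was -0.12 to 0.32 without 1 array, and *Col8a1* with TGFß1 was 0.04 with the slide, 0.02 with slide and run, and -0.40 to 0.06 without 1 array. None of these was called in any fit. The signal over background sets the limit for *Col4a3*, *Col4a4*, *Col4a6* and *Col15a1*, whose changes cannot be read from these arrays.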
